A study of Mus musculus with 24 samples.

Results

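Organoids grown from prostate cells of mice with 1 deleted copy of Brca1 (genotype label Brca1+/-, called HET) were set against organoids of wild type mice (WT), both cultured with dihydrotestosterone (DHT). The sample titles placed 3 libraries in each group, so 6 of the 24 libraries of the series carried this comparison. Another 6 libraries, 3 HET and 3 WT grown without DHT, served as a second comparison of the same genotypes. All cells came from anterior lobes of mice aged 3 months, and were grown as single cells in Matrigel. Every culture, WT included, received epidermal growth factor, Noggin (which blocks BMP signals), R-spondin (which amplifies Wnt signals), A83-01 (which blocks TGF-beta receptors) and the kinase inhibitor Y27632. The part of Brca1 that was deleted, the strain, whether replicates came from separate animals, and whether both media shared animals are not given in the sources used here. The p-values therefore measure only the spread between these libraries, which may be technical.

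Brca1 is a ubiquitin ligase subunit that promotes repair of broken DNA by copying an intact sister strand. It also guards stalled replication forks. Prostate epithelium is built from basal cells, which sit on the basement membrane and carry Trp63 and keratins 5 and 14, and luminal cells, which face the duct, carry keratins 8 and 18 and need androgen to secrete. DHT is the potent androgen made from testosterone by steroid 5-alpha-reductases. In organoids, single basal or luminal progenitor cells grow into hollow spheres that hold both layers. Across the series' comparisons the question is whether losing Brca1 alters prostate epithelium and its need for androgen.

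The 3 HET libraries held 42126931, 37850939 and 42693382 estimated reads, and the 3 WT libraries 11965815, 41885799 and 45995537. WT library 1 stood apart: it was the smallest, 28.1% of its reads came from Lars2 (0.718% at most in the other 5 libraries), and it lay at 79.7 on the second principal component against 16.5 and 21.3 for the other WT libraries. Results are therefore also given without it. Mitochondrial genes took 2.22% to 4.58% of reads in HET and 2.16% to 2.70% in WT libraries. Epithelial markers fitted the label, with Epcam at 1443 to 1685 CPM (reads of a gene scaled to a common library size) in HET and 1594 to 1662 CPM in WT libraries. The secreted probasin, Pbsn, was at or near 0 in all 6 libraries. Smooth muscle Des, endothelial Cdh5 and seminal vesicle Svs4 and Svs5 had no read in them. The 10 fibroblast markers summed to 21.5 to 26.5 CPM in HET and 33.8 to 42.8 CPM in WT libraries. The part of these low levels in the results was not tested. In bulk RNA, fewer cells of a type and less RNA per cell cannot be told apart.

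Of 15427 genes tested, 622 (4.03%) were higher and 536 (3.47%) were lower in HET than in WT organoids at an adjusted p under 0.05 (Benjamini-Hochberg adjustment of the quasi-likelihood test in edgeR). Together 1158 genes, or 7.51%, were called. The median log2 change was 0.87 among genes called higher and -0.70 among those called lower, and -0.0037 over all genes tested. Only 258 of the higher and 163 of the lower genes moved by 1 or more on the log2 scale. All 3 HET libraries lay above all 3 WT libraries for 2315 genes (15%) and below them for 2170 genes (14.1%), and the groups did not overlap for 619 of the 622 and 528 of the 536 called genes. Without WT library 1, 469 of 15741 genes (2.98%) were higher and 370 (2.35%) lower, of which 440 and 345 were also called with it. Of the 168 called genes that are singled out by rule, 112 kept their call when each of the 6 libraries was left out in turn. A call that did not is named as a fragile call here, with its highest edgeR adjusted p and the library whose removal gave it. Both directions were spread over the genome. The called share ran from 5.48% on chromosome 8 to 11.1% on chromosome 3 among the autosomes. Within 20 Mb of Brca1, 17 of 535 tested genes were higher and 22 lower (7.29%).

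Brca1 RNA itself was not lower in HET organoids. The gene (ENSMUSG00000017146.12, chr11:101488764-101551955 of GRCm38, minus strand) had 17.8, 14.7 and 18.04 CPM in HET libraries, against 13.6, 13.2 and 14.3 CPM in WT libraries. Every HET library lay above every WT library, by a log2 change of 0.30 (SE 0.128, edgeR adjusted p = 0.211), which did not pass the test. A transcript that lacks some exons is still counted, so this level does not check the genotype label. In anterior lobe tissue Brca1 had 3.26 and 3.03 CPM in 2 HET samples, against 4.16 and 3.10 CPM in 2 WT samples. None of the 10 genes of the Brca1 complexes passed the test in either direction, while 1 was higher without WT library 1, and 4 were higher in the comparison without DHT. Rbbp8, the end resection factor CtIP, had 133, 108 and 130 CPM in HET and 120, 104 and 113 CPM in WT libraries, which overlap. Uimc1, which tethers Brca1 to ubiquitin at breaks, had 82.7, 98.7 and 93.6 CPM in HET libraries, against 53.1, 78.9 and 64.1 CPM in WT libraries (log2 0.48, edgeR adjusted p = 0.153).

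The steepest differences were close to an on or off state, and 2 of the top 4 were near-identical copies of a housekeeping gene. Rpl34-ps1 is a processed pseudogene of Rpl34, the gene for a protein of the large ribosomal subunit, and lies at chr6:71124610-71124963 (plus strand). It had 176, 219 and 171 CPM in HET libraries, from 7523, 8179 and 7045 reads. WT libraries held 0, 2 and 2 reads of it. The ratio of the read rates was 4635 with an exact 95% interval of 1810 to 17011, which covers counting error only (fitted log2 12.09, edgeR adjusted p = 3.6e-12). In tissue the pseudogene had 0.0531 and 182 CPM in the HET samples and 138 and 264 CPM in the WT samples, so it did not follow the genotype labels there. The coding sequence of Rpl34 (chr3:130726831-130730398, minus strand) and Rpl34-ps1 match at 352 of 354 bases (99.4%), and 80.9% of the pseudogene's stretches of 31 bases also occur in Rpl34 transcripts. The 2 places where they differ are shown because, within these 354 bases, only reads over such places tell the copies apart. They lie at base 132 and base 318 of the Rpl34 coding sequence, and capitals mark the base that differs in windows of 41 bases.
Rpl34, base 132: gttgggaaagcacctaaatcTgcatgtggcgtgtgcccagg
Rpl34-ps1, base 132: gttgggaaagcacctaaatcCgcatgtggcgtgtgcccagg
Rpl34, base 318: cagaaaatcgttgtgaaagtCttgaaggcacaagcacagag
Rpl34-ps1, base 318: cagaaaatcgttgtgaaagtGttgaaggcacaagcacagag

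Eno1b, a second copy of the glycolytic enzyme gene Eno1, behaved in the same manner. It had 592, 687 and 576 CPM in HET libraries, against 6.41, 5.92 and 3.28 CPM in WT libraries (log2 6.94, SE 0.591, edgeR adjusted p = 2.18e-06). Eno1 had 1051, 1212 and 899 CPM in HET libraries, against 1251, 1686 and 1614 CPM in WT libraries, and did not pass the test (log2 -0.53, edgeR adjusted p = 0.192). Summed over both copies, enolase averaged 1672 CPM in HET and 1522 CPM in WT libraries, a log2 ratio of 0.14. The sum of Rpl34 and Rpl34-ps1 averaged 446 CPM in HET and 353 CPM in WT libraries. Amd2, a copy of the polyamine enzyme gene Amd1 that was picked after its values were seen, had 46.5, 37.4 and 40.2 CPM in HET libraries, against 9.23, 6.10 and 7.83 CPM in WT libraries, while the sum of both copies averaged 329 CPM in HET and 300.1 CPM in WT libraries. For these 3 pairs the summed levels were far closer than those of the rarer copy. The share of 31-base stretches held in common was 81.8% for Eno1b and 90.9% for Amd2. Counts of such copies depend on how the deposited quantification split shared reads and are uncertain. The strain is not given, and whether these mice carry the reference sequence of Rpl34-ps1, Eno1b, Amd2, Srp54b and Gstp-ps was not tested, so their values may not measure the copies alone.

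The glutathione S-transferase pi genes, which detoxify electrophiles, differed in their sum. Gstp2 had 30.2, 37.4 and 30.6 CPM in HET libraries, against 2.25, 5.45 and 5.55 CPM in WT libraries (log2 2.80, edgeR adjusted p = 1.47e-05). The related Gstp1, named after its values were seen, had 449, 534 and 418 CPM in HET libraries, against 109, 183 and 172 CPM in WT libraries (log2 1.59, edgeR adjusted p = 0.000255). The pseudogene Gstp-ps went the other way, with 0.117, 0 and 0.0486 CPM in HET libraries, against 5.29, 6.80 and 6.47 CPM in WT libraries. Its read rate was 113 times as high in WT as in HET (7 HET and 643 WT reads, exact 95% interval 54.4 to 281, counting error only). All 4 members together averaged 500.3 CPM in HET and 165 CPM in WT libraries, a log2 ratio of 1.60. Srp54b, a copy of a signal recognition particle gene, had 3.42, 3.56 and 2.92 CPM in HET libraries, against 28.9, 3.89 and 22.1 CPM in WT libraries. WT library 2 sat close to the HET libraries, and the call was fragile (edgeR adjusted p = 0.0541 without HET library 3).

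**Figure D1:**
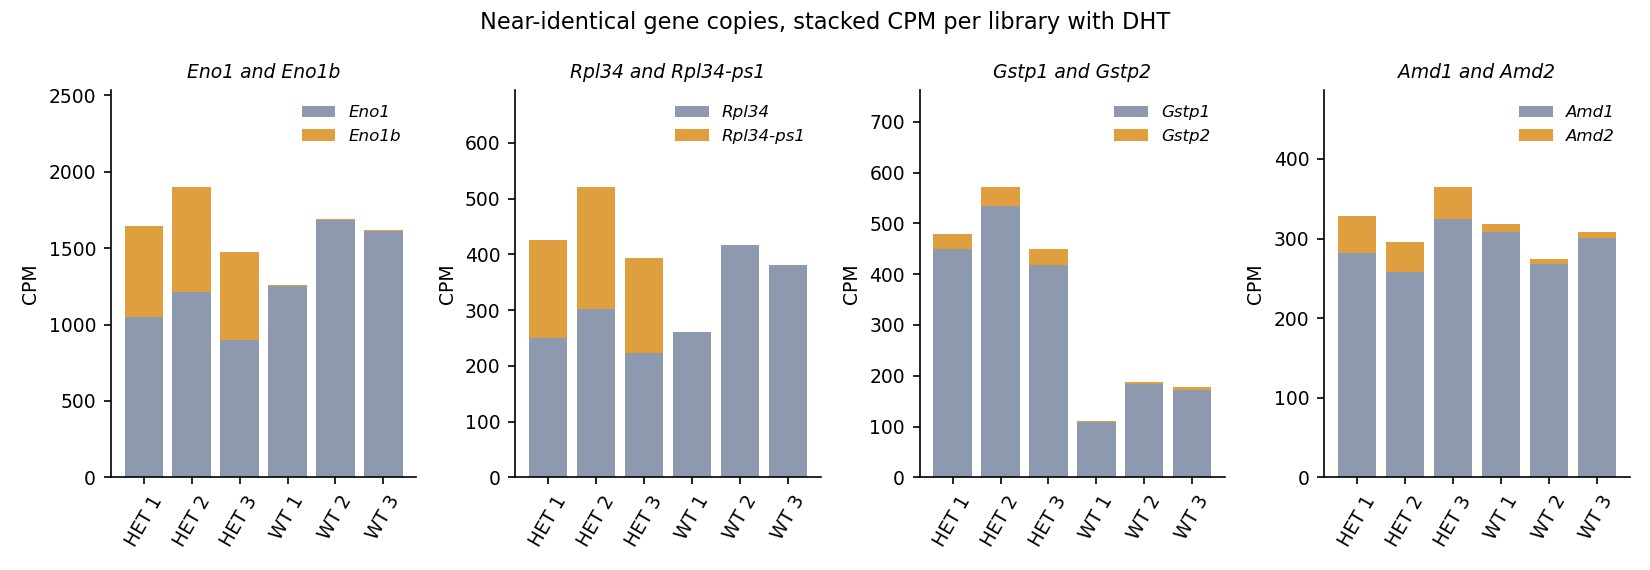
Stacked CPM of 2 near-identical genes per library (y axis, linear) in the 3 HET and 3 WT organoid libraries with DHT (x axis), for 4 gene pairs. Eno1b and Rpl34-ps1 fill a visible part of the HET bars only, while the summed height of the Gstp1 and Gstp2 bars differs between the genotypes.

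Other genes also stood near 0 in WT organoids. Spock1, which encodes the secreted proteoglycan testican-1, had 34.8, 40.4 and 44.3 CPM in HET libraries, against 0.225, 0.256 and 0.277 CPM in WT libraries (log2 7.23, SE 0.287, edgeR adjusted p = 5.16e-10). Rec8, a cohesin subunit of meiosis, had 8.03, 10.9 and 7.07 CPM in HET libraries and a total of 4 reads in the WT libraries. Its rate ratio was 212 (exact 95% interval 82.6 to 779.9, counting error only). Xlr3b, an X-linked gene of a family with close relatives, so that its split of reads is uncertain, had 14.9, 13.6 and 11.9 CPM in HET libraries, against 0.113, 0.0932 and 0.468 CPM in WT libraries. Cldn6, a claudin typical of embryonic epithelium, had 14.6, 14.8 and 16.6 CPM in HET libraries, against 0.675, 1.30 and 1.19 CPM in WT libraries (log2 3.74, edgeR adjusted p = 1.86e-06). No HET value of these 4 genes came near a WT value, and groups without overlap were a condition for being chosen as a largest rise. In all, 12 called genes had 3 reads or fewer in each WT library and at least 1 CPM on average in HET, and 3 had the reverse. The next rises were in Ifi205 (log2 3.47), Mvb12b (3.29), Sp140 (3.13), Adgrg7 (2.97), Trim12a (2.88), Syt7 (2.73), Fcgbp (2.73) and Nrn1 (2.71), with edgeR adjusted p between 1.12e-06 and 0.000209. Syt7 is a calcium sensor of lysosome exocytosis, Fcgbp a mucin-like secreted protein, Mvb12b an ESCRT-I subunit and Sp140 a chromatin reader.

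Among the falls, Sptssb, a small subunit of serine palmitoyltransferase that sets sphingolipid chain length, had 0.281, 0.401 and 0.0972 CPM in HET libraries, against 2.70, 6.52 and 7.40 CPM in WT libraries (log2 -4.45, SE 0.51, edgeR adjusted p = 4.56e-05). Arntl2, a partner of Clock in the circadian feedback loop, had 0.983, 1.04 and 0.899 CPM in HET libraries, against 9.0, 7.18 and 7.26 CPM in WT libraries. Has2, which spins out the matrix polymer hyaluronan, had 1.31, 0.615 and 0.948 CPM in HET libraries, against 8.55, 4.36 and 4.83 CPM in WT libraries. Groups did not overlap for any of the 3, which was a condition for being chosen as a largest fall. The remaining large falls included Dsg4 (log2 -2.22), Hs3st3b1 (-2.08), Fras1 (-2.01), Sparc (-2.00), Slitrk6 (-1.99), Tmprss11d (-1.97), Kcnj15 (-1.93), Dmkn (-1.89), Zbtb7c (-1.64) and Mx2 (-1.61), with edgeR adjusted p between 3.35e-09 and 0.00107. Hs3st3b1 sulfates heparan chains, Fras1 anchors the basement membrane and dermokine, Dmkn, is a secreted protein of stratified epithelium.

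**Figure D2:**
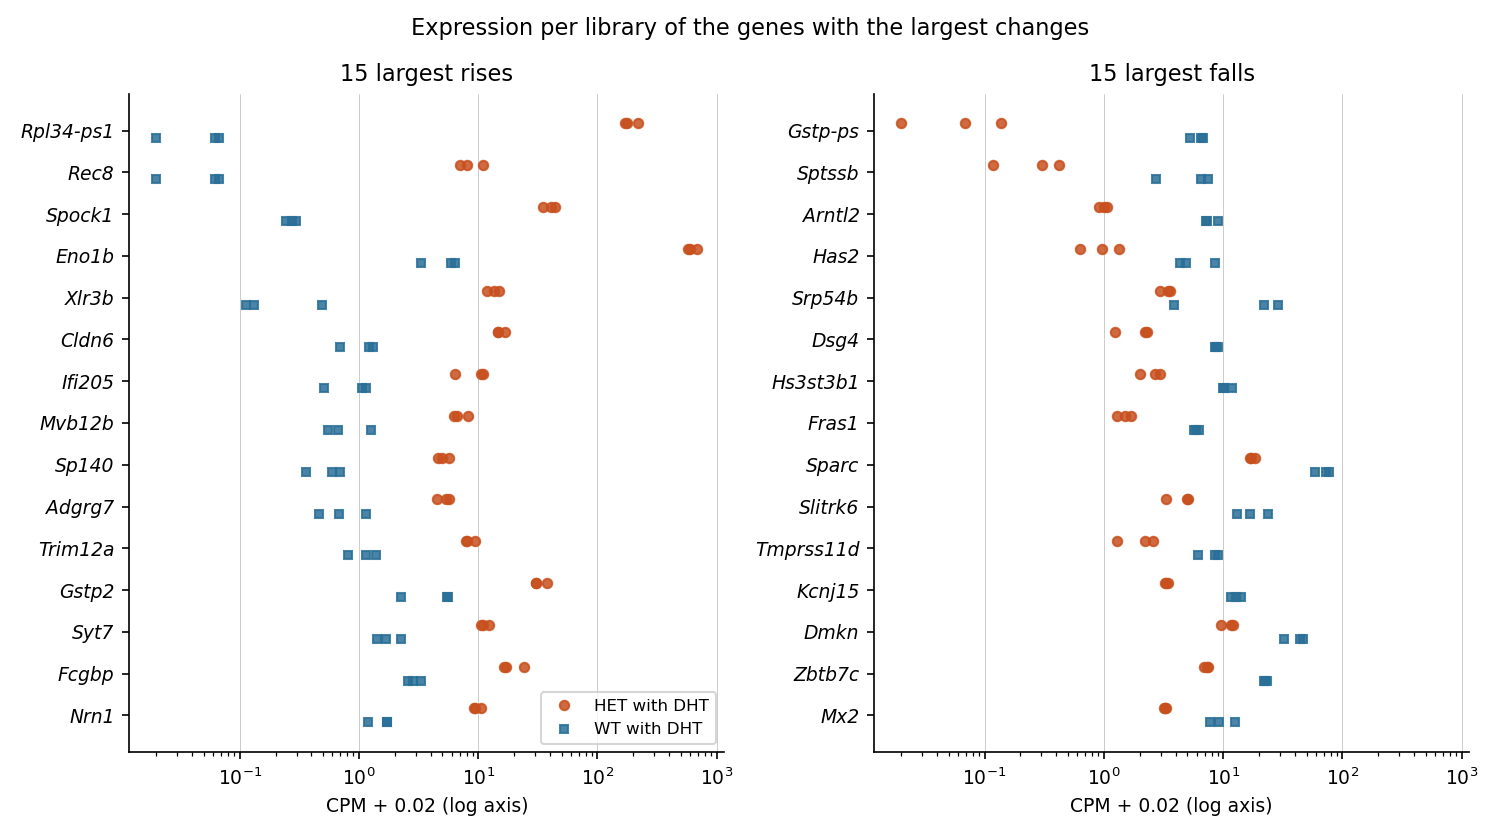
CPM plus 0.02 on a log axis (x) for the 15 genes with the largest rises and the 15 with the largest falls (y), 1 circle per HET and 1 square per WT library with DHT. Circles and squares do not overlap in any row because only genes without overlap were eligible. Srp54b has 1 WT square at 3.89 CPM beside the HET circles.

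The most abundant genes moved by small factors. Serinc3, a membrane lipid scramblase, had 806, 758 and 836 CPM in HET libraries, against 611, 540 and 555 CPM in WT libraries (log2 0.49, edgeR adjusted p = 0.00137). Sprr2a2, a small proline-rich protein of cornified and stressed epithelium, had 2069, 2545 and 1970 CPM in HET libraries, against 3493, 4971 and 4944 CPM in WT libraries (log2 -1.03, edgeR adjusted p = 0.00834). Ahnak, a giant scaffold under the plasma membrane, had 2274, 2320 and 2094 CPM in HET libraries, against 3553, 2882 and 3085 CPM in WT libraries. The chaperone Hspa5 (log2 0.50), keratin 18 (0.50), the hypoxia-responsive Ndrg1 (0.43) and the actin-binding thymosin Tmsb4x (0.57) were higher, and Ahnak (-0.51) and the transferase Gsta4 (-0.51) lower, as fragile calls. Their highest edgeR adjusted p was 0.12 for Hspa5 and 0.129 for Tmsb4x (without WT 1), 0.107 for Krt18 and 0.188 for Ndrg1 (without HET 2), and 0.0622 for Ahnak and 0.0742 for Gsta4 (without HET 3). Gm20594 was called lower through WT library 1 alone: it had 677, 590 and 679 CPM in HET libraries, against 13670, 772 and 894 CPM in WT libraries. Without WT library 1 its edgeR adjusted p was 0.623.

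Genes of cell division were the list with the most members called. Of 38 genes for mitosis, 30 were higher in HET organoids and none lower, against 4.03% higher over all genes tested. The median log2 change over the 38 was 0.70, against -0.0037 over all genes, and each of the 38 had a change above 0. Among 18 mitotic kinases and regulators, 15 rose. Aurka, the kinase that matures spindle poles, had 37.7, 38.1 and 37.7 CPM in HET libraries, against 19.7, 24.2 and 22.8 CPM in WT libraries (log2 0.76, SE 0.0827, edgeR adjusted p = 2.67e-05). Bub1b, a spindle checkpoint kinase, had 71.8, 68.7 and 65.2 CPM in HET libraries, against 43.0, 47.2 and 45.4 CPM in WT libraries (log2 0.60). Ccnb1, the cyclin that drives entry into mitosis, had 71.4, 60.6 and 60.3 CPM in HET libraries, against 38.8, 42.2 and 34.4 CPM in WT libraries (log2 0.74). Every HET library lay above every WT library for the 3 genes. Cdca8, which targets Aurora B to centromeres, rose by a log2 change of 0.69 (edgeR adjusted p = 0.000391).

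Among 20 genes of the spindle, kinetochore and chromosome scaffold, 15 rose. Kif2c, a motor that frees faulty microtubule attachments, had 33.5, 31.3 and 30.3 CPM in HET libraries, against 15.9, 19.3 and 16.98 CPM in WT libraries (log2 0.86, SE 0.101, edgeR adjusted p = 5.88e-05). Kif20a (log2 0.64) and Racgap1 (0.62) act in the last step that parts daughter cells, and Ncaph (0.61) is a condensin subunit. The 8 members that missed the threshold were Cdc20, Cdc25b, Pttg1, Cenpa, Cenpe, Cenpf, Smc2 and Smc4, with log2 changes from 0.05 (Pttg1) to 0.77 (Smc4). The count of mitosis genes called was 28 without WT library 1, and 20 to 30 when each of the 12 HET and WT organoid libraries was left out in turn, with the lowest count without WT library 3. It was 30 with DESeq2.

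**Figure D3:**
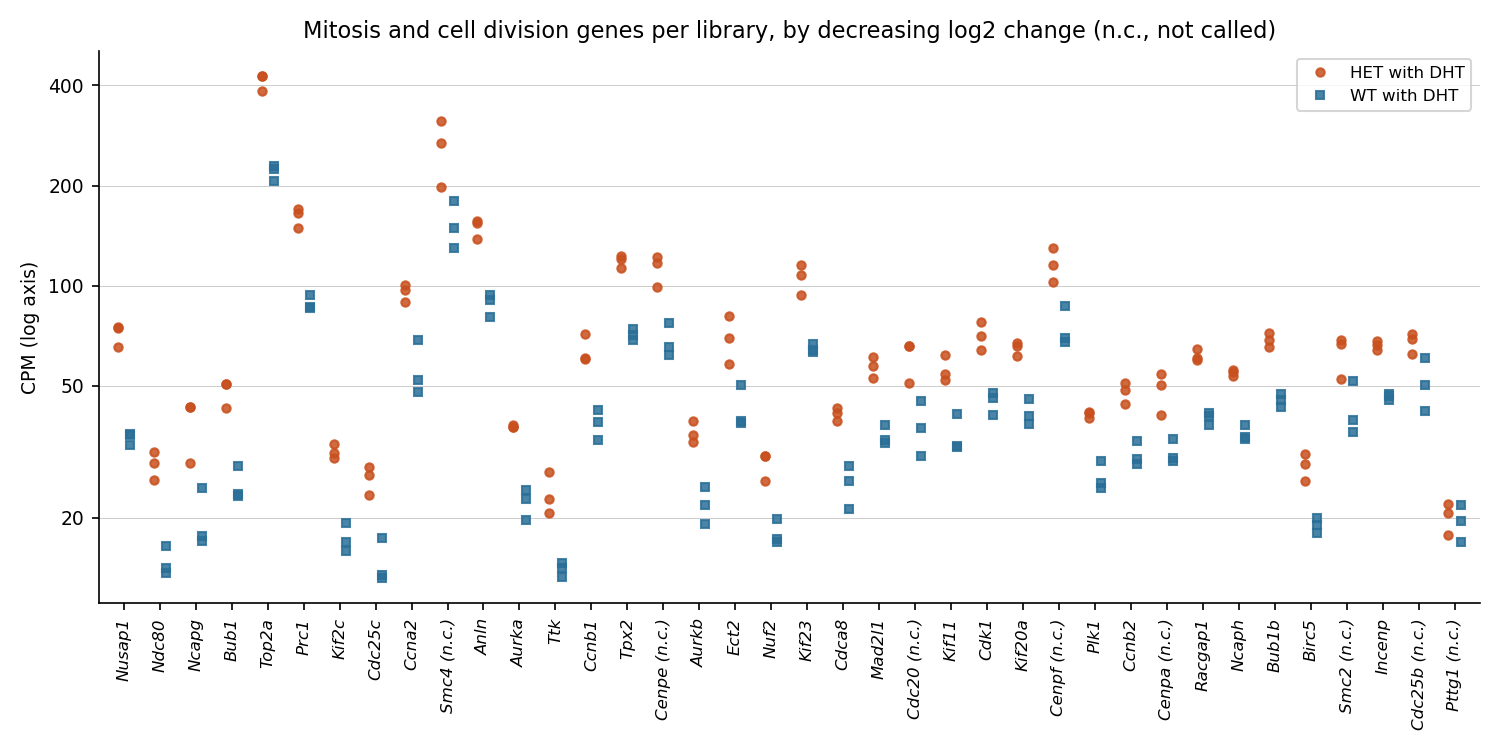
CPM on a log axis (y) of the 38 mitosis and cell division genes (x, by decreasing log2 change), 1 circle per HET and 1 square per WT library with DHT; "n.c." marks the 8 genes not called. HET circles lie above WT squares for most genes, for instance 65.2 to 71.8 against 43.0 to 47.2 CPM for Bub1b.

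Promoters of such genes are known to carry CCAAT boxes, bound by the factor NF-Y, and the cell cycle element CHR, bound by the MuvB complex, which represses them in resting cells. Sequences from RefSeq (GRCm38.p6) were found for 31 of the 38 genes, with 33 promoters. In the 250 bases before the start, the letters CCAAT on either strand occurred in 24 of the 33 promoters (72.7%) and in 35.3% of the promoters of tested genes. The letters TTTGAA or TTCGAA on either strand, the CHR element, occurred in 12 of the 33 (36.4%) and in 12.9% of the promoters of tested genes. The shares in the promoters of the genes called higher were 69.2% and 38.5%, near those of the whole list. A match is a description of these letters and no evidence of binding. Among the genes described above, Ncaph had no match to either element in this window, and Kif2c had no CCAAT box. Aurka, Ccnb1, Cdca8 and Racgap1 had a CCAAT box but no match to the CHR element. The promoters of 3 that hold a CCAAT box follow, with capitals at each such box (as ATTGG where it lies on the other strand) and at the TTCGAA of Bub1b. They lie at chr2:172370571-172370820 (minus strand, Aurka), chr2:118597961-118598210 (plus strand, Bub1b) and chr13:100786487-100786736 (minus strand, Ccnb1).
Aurka: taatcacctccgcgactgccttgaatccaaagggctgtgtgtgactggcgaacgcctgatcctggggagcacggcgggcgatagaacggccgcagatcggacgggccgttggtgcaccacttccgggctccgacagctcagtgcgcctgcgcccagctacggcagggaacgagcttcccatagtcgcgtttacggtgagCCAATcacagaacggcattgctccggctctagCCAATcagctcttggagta
Bub1b: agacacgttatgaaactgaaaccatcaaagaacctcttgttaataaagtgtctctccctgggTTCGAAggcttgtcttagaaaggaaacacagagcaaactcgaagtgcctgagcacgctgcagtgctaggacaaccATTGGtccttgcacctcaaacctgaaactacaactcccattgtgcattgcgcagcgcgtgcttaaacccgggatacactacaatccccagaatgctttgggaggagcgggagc
Ccnb1: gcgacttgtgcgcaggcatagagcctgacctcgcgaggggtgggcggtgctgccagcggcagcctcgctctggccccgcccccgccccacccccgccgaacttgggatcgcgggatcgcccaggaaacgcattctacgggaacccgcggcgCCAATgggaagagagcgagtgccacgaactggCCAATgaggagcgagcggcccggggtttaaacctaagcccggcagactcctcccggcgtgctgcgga

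DNA replication genes moved in the same direction by less, beside 4.03% higher over all genes tested. Of 36 genes, 12 were higher and none lower, with a median log2 change of 0.37, and 34 of the 36 had a change above 0. Cdc45, part of the replicative helicase, had 9.57, 9.34 and 7.997 CPM in HET libraries, against 4.39, 5.52 and 5.21 CPM in WT libraries (log2 0.82, SE 0.161, edgeR adjusted p = 0.00484). Of the helicase ring, Mcm3 (log2 0.60), Mcm5 (0.77) and Mcm6 (0.53) rose, Mcm5 as a fragile call (edgeR adjusted p = 0.0729 without WT library 1). Uhrf1, which copies DNA methylation marks behind the fork, had 51.8, 48.1 and 47.0 CPM in HET libraries, against 31.1, 35.6 and 33.6 CPM in WT libraries (log2 0.55, edgeR adjusted p = 0.00192). The groups were apart for both Cdc45 and Uhrf1. Fragile calls were Rrm1, which makes deoxynucleotides (log2 0.37, edgeR adjusted p = 0.0543 without WT 3) and the cyclin-dependent kinase inhibitor Cdkn2c (0.58, 0.0633 without WT 3). The count of 12 fell to 7 without HET library 1, HET library 2, WT library 2 or WT library 3, and was 8 without HET library 3 or WT library 1.

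Some recombination genes were higher. Of 11 strand exchange genes 5 rose and none fell (median log2 0.54), against 4.03% higher over all genes, and 3 rose without WT library 3. Rad54b, which drives strand invasion, had 10.4, 9.20 and 8.34 CPM in HET libraries, against 4.39, 5.10 and 4.96 CPM in WT libraries (log2 0.94). Rad51ap1, a recombination cofactor, rose by a log2 change of 0.89, and the related Rad51b by 0.85 as a fragile call (edgeR adjusted p = 0.0642 without WT 3). Of 15 Fanconi and checkpoint genes, Fancd2 (log2 0.69), Fancb (1.01) and the checkpoint kinase Chek2 (0.50) rose and none fell. Among 15 end joining genes, the polymerase Polq rose (log2 0.78, edgeR adjusted p = 0.067 without WT 2) and the ligase Lig3 fell (-0.27, edgeR adjusted p = 0.139 without HET 3), both as fragile calls. None of 21 p53 target genes passed the test (median log2 0.08). The p53-induced cell cycle inhibitor Cdkn1a had 529, 612 and 590 CPM in HET and 427, 598 and 544 CPM in WT libraries, which overlap.

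Genes of the basal layer and of cell adhesion leaned lower. Of 20 basal genes 4 fell and none rose (median log2 -0.15), against 3.47% lower over all genes, and 18 of the 20 had a change below 0. Their summed level was 5469 to 5782 CPM in HET and 6087 to 7310 CPM in WT libraries. Col17a1, a collagen that rivets basal cells to the basement membrane, had 587, 616 and 563 CPM in HET libraries, against 771, 925 and 873 CPM in WT libraries (log2 -0.54, SE 0.114, edgeR adjusted p = 0.0077). Keratin 14 had 269, 254 and 250.5 CPM in HET libraries, against 358, 478 and 451 CPM in WT libraries (log2 -0.74, edgeR adjusted p = 0.0426). That call was fragile (edgeR adjusted p = 0.145 without WT 2), as were those of the growth factor Nrg1 (log2 -0.56, 0.107 without WT 3) and podoplanin, Pdpn (-0.45, 0.113 without HET 2). The count of 4 was 1 without HET library 2, HET library 3 or WT library 3, 2 without HET library 1 or WT library 2, and 3 without WT library 1. Trp63, the master regulator of basal cells and named after its values were seen, had 105, 90.8 and 121 CPM in HET and 195, 127 and 133 CPM in WT libraries and did not pass the test (log2 -0.52, edgeR adjusted p = 0.186).

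Some cadherins of desmosomes, the rivets between epithelial cells, showed larger falls, while 3.47% of all genes tested were lower. Of 6 tested desmosomal cadherins on the list 2 fell and none rose (median log2 -0.70). Dsg4, a cadherin of the same family that the list does not hold, was named as one of the largest falls (log2 -2.22, edgeR adjusted p = 1.62e-05). Dsc3 had 27.1, 23.7 and 25.1 CPM in HET libraries, against 79.9, 64.2 and 63.9 CPM in WT libraries (log2 -1.45, SE 0.143, edgeR adjusted p = 1.06e-05). Dsg3 had 76.8, 66.9 and 72.2 CPM in HET libraries, against 161, 169 and 175 CPM in WT libraries (log2 -1.23, SE 0.117, edgeR adjusted p = 7.63e-06). Both are the cadherins of basal and suprabasal layers, their groups were far apart, and both calls stood under each alternative run. The 14 genes of the plaque and of basement membrane anchoring showed no such falls (median log2 -0.18). Among them 1 rose, the plaque protein Pkp2 (log2 0.47, edgeR adjusted p = 0.00154), and 1 fell, Col17a1. Of 17 tested genes of the cornified envelope, the hardened shell of squamous cells, 5 fell and none rose (median log2 -1.06). Sprr1b had 1.26, 1.42 and 1.56 CPM in HET libraries, against 3.04, 4.15 and 3.96 CPM in WT libraries (log2 -1.41). Sprr2h (log2 -1.19), Sprr2d (-1.46) and the barrier protein filaggrin, Flg (-1.36, a fragile call with edgeR adjusted p = 0.0545 without HET 1), fell too. Without DHT 2 of the 17 fell and 1 rose, with a median of -0.33.

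Luminal genes showed no common shift, and over all genes tested 4.03% were higher and 3.47% lower. Of 16 luminal genes 2 rose, keratin 18 and Tspan8, and none fell (median log2 -0.04), and the summed level was 12007 to 12401 CPM in HET and 11318 to 12114 CPM in WT libraries. Tspan8, a tetraspanin of luminal cells, had 224, 187 and 213 CPM in HET libraries, against 141, 119 and 134 CPM in WT libraries (log2 0.66, edgeR adjusted p = 0.000887). Clu, the chaperone clusterin and a marker of proximal luminal progenitors, had 772, 746 and 881 CPM in HET libraries, against 388, 390 and 417 CPM in WT libraries (log2 1.01, SE 0.123, edgeR adjusted p = 8.18e-05). Of the 15 genes on that progenitor list, 2 rose (Clu and the iron-sequestering Lcn2) and 1 fell, the water channel Aqp3 (log2 -0.93). Lcn2 was a fragile call (log2 0.52, edgeR adjusted p = 0.101 without HET 2). Keratin 23 rose, with 106, 81.0 and 95.9 CPM in HET libraries, against 49.0, 40.9 and 51.2 CPM in WT libraries (log2 1.01), while keratin 20 (log2 -1.01) and keratin 16 (-1.14) fell. Claudins and junction scaffolds had 1 rise, Cldn6, and 1 fall, Cldn1 (log2 -0.80, edgeR adjusted p = 0.0938 without WT 1, a fragile call), among 17. Of 9 tested genes on a list of prostate secretory and lobe genes, not all of which encode secreted products, 2 rose and 2 fell. Pigr, which carries antibodies into secretions, had 459, 503 and 435 CPM in HET libraries, against 257, 254 and 245 CPM in WT libraries (log2 0.89, edgeR adjusted p = 7.63e-06). Mme fell (log2 -2.27) at low levels, with 0.562, 0.535 and 0.559 CPM in HET libraries, against 3.04, 2.10 and 2.94 CPM in WT libraries. Gsdmc2 (log2 1.08) rose and Gsdma (-1.18) fell, both as fragile calls (edgeR adjusted p = 0.115 and 0.0529 without HET 3).

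**Figure D4:**
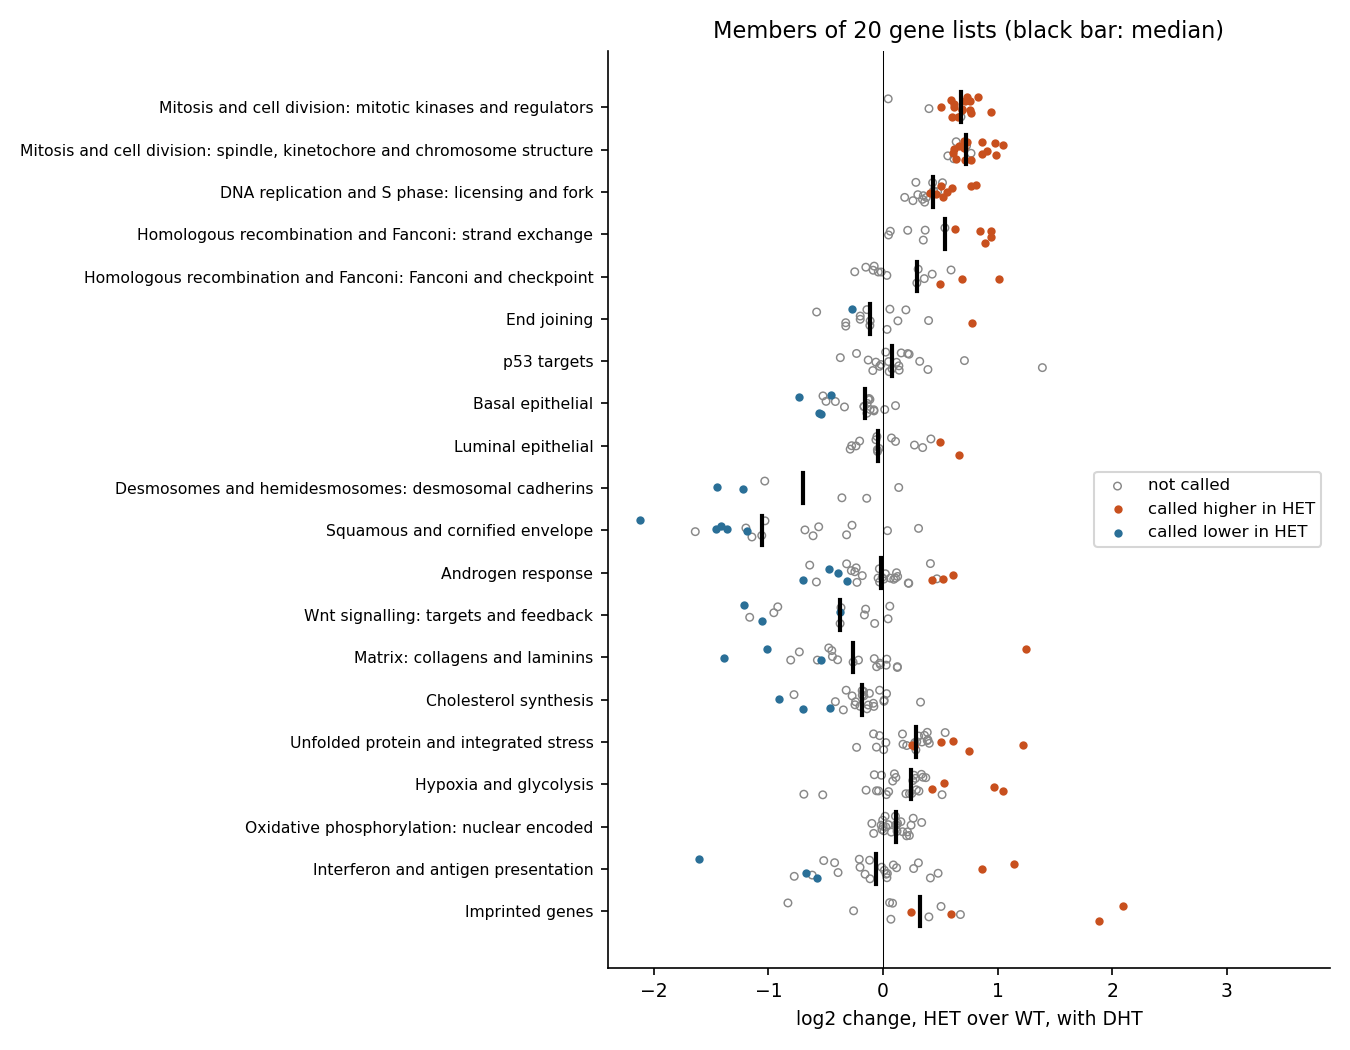
The log2 change of HET over WT with DHT (x axis) of each tested member of 20 gene lists (y axis), with filled points for called genes, open points for the others and a bar at each list's median. Medians are 0.68 and 0.72 for the 2 mitosis rows and -1.06 for the cornified envelope row.

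Extracellular matrix genes moved both ways, beside 4.03% higher and 3.47% lower over all genes tested. Of 16 matricellular and mesenchymal genes 5 fell and 2 rose. Sparc, a collagen-binding matricellular protein, had 16.9, 18.4 and 17.1 CPM in HET libraries, against 59.3, 76.6 and 72.9 CPM in WT libraries (log2 -2.00, SE 0.0932, edgeR adjusted p = 3.35e-09). Thbs2, a thrombospondin, had 3.46, 3.48 and 3.91 CPM in HET libraries, against 10.4, 9.60 and 9.0 CPM in WT libraries (log2 -1.41), and the Sparc relative Smoc2 fell as well (log2 -1.32). Fibronectin, Fn1, had 87.9, 95.6 and 118 CPM in HET libraries, against 38.8, 46.8 and 54.1 CPM in WT libraries (log2 1.10, edgeR adjusted p = 0.000212). All 4 genes had separate groups. Of 21 collagens and laminins 3 fell and 1 rose. Col4a2, a chain of basement membrane collagen IV, had 26.2, 36.9 and 27.4 CPM in HET libraries, against 82.8, 77.2 and 76.3 CPM in WT libraries (log2 -1.38, edgeR adjusted p = 0.00119). Nid1, which links laminin to collagen IV, rose (log2 1.25), and Col7a1, the anchoring fibril, fell as a fragile call (-1.01, edgeR adjusted p = 0.112 without HET 3). Of 23 proteases and inhibitors, Adamts1 (log2 -0.63) and Mmp7 (-0.58) were among 4 that fell, and the inhibitor Timp3 (1.06) among 3 that rose. Without HET library 3, 1 rose, and without HET library 1, HET library 2 or WT library 1, 2 fell. Of 14 integrins only Itga1 passed the test (log2 1.32).

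Low-level markers of other cell types moved beside these genes. Dcn, the proteoglycan decorin, had 9.76, 12.1 and 8.58 CPM in HET libraries, against 27.1, 21.3 and 23.4 CPM in WT libraries (log2 -1.23, edgeR adjusted p = 0.000815). Of the 10 fibroblast markers 5 passed the filter on low counts and 1 fell. Of 8 neuroendocrine markers 4 passed the filter and Ncam1 fell (log2 -1.38, edgeR adjusted p = 0.000112), and the 8 summed to 4.12 to 4.74 CPM in HET and 8.41 to 9.0 CPM in WT libraries. Smooth muscle markers summed to 3.35 to 4.01 CPM in HET and 1.35 to 2.54 CPM in WT libraries, with Mylk as the one call, a fragile one (log2 0.94, edgeR adjusted p = 0.0996 without HET 2). The endothelial marker Pecam1 stood at 12.04 CPM in WT library 1 and between 2.79 and 4.11 CPM in the other 5. The macrophage marker Cd68 had 72.5, 67.1 and 75.9 CPM in HET and 60.7, 49.3 and 51.8 CPM in WT libraries, while the leukocyte gene Ptprc reached at most 0.450 CPM in any of the 6. Their part in the matrix results was not tested.

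Steroid receptor and androgen genes differed at single points. Esr1 had 14.0, 12.8 and 14.9 CPM in HET and 15.4, 13.7 and 14.4 CPM in WT libraries, Esr2 reached at most 0.608 CPM, and Pgr had no read. The glucocorticoid receptor Nr3c1, at 90.4, 90.5 and 104 CPM in HET libraries and 83.3, 76.0 and 77.9 CPM in WT libraries, did not pass the test (log2 0.27, edgeR adjusted p = 0.387). The mineralocorticoid receptor Nr3c2 rose, with 4.19, 4.79 and 5.91 CPM in HET libraries, against 2.70, 2.47 and 2.21 CPM in WT libraries (log2 1.03, SE 0.19, edgeR adjusted p = 0.00292). Srd5a1, the 5-alpha-reductase that turns testosterone into DHT, had 74.2, 72.5 and 72.5 CPM in HET libraries, against 19.6, 27.0 and 26.0 CPM in WT libraries (log2 1.58, SE 0.119, edgeR adjusted p = 6.23e-07). The HET libraries lay close together, at a mean of 73.1 ± 0.981 CPM against 24.2 ± 4.02 CPM in WT libraries (SD, n = 3 each). Among the other enzymes tested, Hsd17b7 fell (log2 -0.91, edgeR adjusted p = 0.000318) and the sulfotransferase Sult2b1 fell as a fragile call (-0.65, 0.0878 without WT 2). Of 30 genes that androgen is known to induce, 3 rose and 4 fell, with a median log2 change of -0.02. Over all genes tested, 4.03% were higher and 3.47% lower. The rises were Cdc14b (log2 0.62), Stk39 (0.52) and Ndrg1 (0.43), and the falls included Sgk1 (-0.31), Steap4 (-0.47) and the cholesterol pathway isomerase Idi1 (-0.70), all fragile calls. Their highest edgeR adjusted p was 0.0553 for Cdc14b and 0.0707 for Stk39 (without HET 3), 0.188 for Ndrg1 and 0.081 for Steap4 (without HET 2), 0.0599 for Sgk1 (without WT 3) and 0.151 for Idi1 (without WT 1). Without WT library 1, 1 of the 30 rose and 1 fell, as without HET library 2. Without WT library 3 none rose and 1 fell, and without HET library 3 none rose and 2 fell.

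Among developmental regulators, calls fell on Hox and imprinted genes. Of 21 Hox genes, which set position along the body axis, 3 rose and 1 fell, and the called share over all genes was 7.51%. Hoxd10 (log2 1.07) and Hoxd11 (1.02) rose. Hoxd11 had 18.1, 21.8 and 22.0 CPM in HET libraries, against 9.0, 10.8 and 10.6 CPM in WT libraries. Hoxa5 (0.62) and Hoxb4 (-0.63) were fragile calls (edgeR adjusted p = 0.164 without HET 2 and 0.196 without WT 3). Of 20 prostate lineage factors 1 was called, Gata2 (log2 -0.63, a fragile call, edgeR adjusted p = 0.0804 without HET 1), a share near the 3.47% lower over all genes. Of 12 tested imprinted genes 4 rose and none fell, and 2 rose without any 1 of HET libraries 1, 2 and 3 and WT libraries 1 and 2. Grb10, an adaptor that restrains insulin signalling, had 4.40, 4.23 and 3.96 CPM in HET libraries, against 0.788, 0.955 and 1.11 CPM in WT libraries (log2 2.09, SE 0.18, edgeR adjusted p = 2.42e-06). Peg10, at 1.10, 0.856 and 1.12 CPM in HET libraries, against 0.113, 0.326 and 0.277 CPM in WT libraries, rose by a log2 change of 1.89. Cdkn1c (log2 0.59) and Snrpn (0.24) were fragile calls (edgeR adjusted p = 0.135 without WT 2 and 0.175 without WT 1).

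Wnt feedback genes leaned lower in a medium that contains R-spondin. Of 13 tested Wnt targets 3 fell and none rose (median log2 -0.37), against 3.47% lower over all genes, and 11 of the 13 had a change below 0. Axin2, the feedback scaffold that destroys beta-catenin, had 17.6, 14.6 and 17.1 CPM in HET libraries, against 43.1, 34.7 and 37.1 CPM in WT libraries (log2 -1.22, SE 0.13, edgeR adjusted p = 2.38e-05). The Wnt inhibitor Apcdd1 had 6.30, 6.80 and 5.86 CPM in HET libraries, against 12.8, 13.4 and 13.1 CPM in WT libraries (log2 -1.06). WT values were about double the HET values for both, with no overlap. Myc fell as a fragile call (log2 -0.38, edgeR adjusted p = 0.0955 without HET 2). Of 23 ligands and receptors, Wnt5a, which signals outside beta-catenin, rose (log2 0.85, edgeR adjusted p = 0.000677), as did the receptor Fzd4 (0.48), while the receptor Fzd6 (-0.41) and the secreted antagonist Wif1 (-0.79) fell. In all 4 of the 23 fell, and 2 without any 1 of the HET libraries, WT library 2 or WT library 3. Of 18 MAPK output genes, the feedback inhibitors Spry4 (log2 1.04) and Spry2 (0.56) rose. Of 13 genes of the IGF axis, Igfbp4, which binds IGF, rose (log2 1.27, edgeR adjusted p = 7.6e-05) and Igf2bp2 fell as a fragile call (-0.74, 0.0681 without HET 2). Of 24 TGF-beta and BMP genes 3 rose and 3 fell, against 4.03% higher and 3.47% lower over all genes, and 1 rose without HET library 3. The receptor Tgfbr2 had 111, 103 and 117 CPM in HET libraries, against 165, 151 and 157 CPM in WT libraries (log2 -0.51, edgeR adjusted p = 0.00242). The activin subunit Inhbb rose (log2 0.98) and the ligand Tgfb3 fell (-0.47). Of 15 Notch genes, the target Hey1 rose (log2 0.86) and the receptor Notch2 fell as a fragile call (-0.50, 0.0656 without HET 3).

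Stress genes were higher in part, beside 4.03% higher and 3.47% lower over all genes tested. Of 26 genes of the unfolded protein and integrated stress responses 6 rose and none fell (median log2 0.29), and the count was 2 without any 1 of HET libraries 2 and 3 and WT libraries 1, 2 and 3, and 3 without HET library 2, WT library 1 or WT library 3 of the cultures lacking DHT. Ddit3, the stress transcription factor CHOP, had 120, 167 and 144 CPM in HET libraries, against 44.5, 72.1 and 67.0 CPM in WT libraries (log2 1.22, SE 0.2, edgeR adjusted p = 0.00118). Asns, which makes asparagine, had 135, 126 and 126 CPM in HET libraries, against 77.4, 87.9 and 88.7 CPM in WT libraries (log2 0.61). For both genes the groups were apart. Psat1, of serine synthesis, was a fragile call (log2 0.26, edgeR adjusted p = 0.151 without HET 3). Of 28 genes of hypoxia and glucose use 4 rose and none fell, 1 rose without WT library 1 or HET library 3, and 2 rose without HET library 2. Pfkfb3, which speeds glycolysis, had 151, 206 and 195 CPM in HET libraries, against 75.7, 112 and 94.6 CPM in WT libraries (log2 0.97, edgeR adjusted p = 0.00405). Adm (log2 1.05, edgeR adjusted p = 0.0585 without HET 3) and Ankrd37 (0.53, 0.174 without HET 2) were fragile calls. Without DHT none of the 28 rose and 1 fell. Of 25 genes of cholesterol synthesis 3 fell and none rose, and the largest log2 change among the named ones was that of Hsd17b7 (-0.91). None of 13 mitochondrially encoded and 24 nuclear genes of oxidative phosphorylation passed the test.

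Immune genes split within families, beside 4.03% higher and 3.47% lower over all genes tested. Of 26 type I interferon response genes 2 rose and 3 fell. Oasl1 (log2 1.14) and Oas2 (0.86, a fragile call, edgeR adjusted p = 0.0508 without WT 2), of the antiviral OAS family, rose. Mx2 (-1.61), of a family of antiviral GTPases, and the interferon signal carrier Stat2 (-0.67) fell. The annotation lists Mx2 as a polymorphic pseudogene, and whether these mice carry a working copy was not tested. Mx2 had 3.25, 3.18 and 3.31 CPM in HET libraries, against 9.23, 7.76 and 12.6 CPM in WT libraries. In the Ifi200 family of nucleic acid sensors, Ifi205 had 10.5, 6.39 and 10.99 CPM in HET libraries, against 1.13, 0.489 and 1.04 CPM in WT libraries, and Ifi211 rose too (log2 1.89). Ifi214 fell (log2 -2.24), and Ifi203 fell as a fragile call (-1.47, edgeR adjusted p = 0.108 without WT 1). These relatives lie close in sequence, so their split of reads is uncertain. Of 15 tested genes of antigen presentation 3 rose, none fell, and 2 rose without WT library 1. The immunoproteasome subunit Psmb8 had 16.9, 18.4 and 15.05 CPM in HET libraries, against 3.94, 6.22 and 6.89 CPM in WT libraries (log2 1.52, edgeR adjusted p = 0.00146). H2-Ab1, a class II chain, rose (log2 1.26), and Psmb9 was a fragile call (0.87, 0.142 without HET 2). Of 24 chemokines and antimicrobial genes, Cxcl14 was one of 2 that rose (log2 1.42) and none fell.

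Smaller groups gave few calls each, beside 4.03% higher and 3.47% lower over all genes tested. Of 15 retinoid genes 2 rose and 2 fell. Cyp26b1, which degrades retinoic acid, rose (log2 0.47), while Crabp2 (-0.72) and Rarb (-0.30) fell as fragile calls (edgeR adjusted p = 0.0642 without WT 2 and 0.1998 without HET 2). Of 18 sphingolipid genes 3 fell and 1 rose, 1 fell without HET library 2 or WT library 2, and Sptssb fell the most among the named ones. Sptlc1 (log2 -0.33), Cers6 (-0.41) and Sgms2 (0.73) were fragile calls (edgeR adjusted p = 0.0866 without HET 2, 0.132 without WT 1 and 0.107 without HET 3). Of 20 clock genes, Arntl2 fell, the repressor Nr1d1 was higher (log2 0.96) and Per3 lower (-0.40), both as fragile calls (edgeR adjusted p = 0.0729 without HET 2 and 0.101 without HET 3). Of 19 tested ion transport genes 3 rose and 2 fell, and 1 rose without WT library 1. Among them, carbonic anhydrase Car2 had 411, 423 and 371 CPM in HET libraries, against 278, 288 and 293 CPM in WT libraries (log2 0.49, edgeR adjusted p = 0.00143). The proton pump Atp12a (0.93) was higher and the channel Cftr (-1.09) lower, as fragile calls (edgeR adjusted p = 0.0723 and 0.0521 without HET 2). Of 20 oxidant defence genes Gstm5 rose (log2 0.62), and of 16 importins Kpnb1 was a fragile call (0.36, 0.127 without HET 3).

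The same genotypes were compared without DHT in 6 libraries that share none with the comparison above. There 698 genes (4.52%) were higher and 507 (3.29%) lower in HET than in WT organoids, 7.81% of the genes tested. Of the 1158 genes called with DHT, 1145 (98.9%) had the same sign without it, 614 of the higher and 531 of the lower ones. Both media called 772 genes in the same direction, which is 66.7% of the calls with DHT and 64.1% of those without, and 0 in opposite directions. Whether both media drew on the same animals or cultures is not given. Differences of genotype and differences between animals or cultures therefore cannot be told apart by this agreement. Over all 15427 genes the log2 changes of the 2 media had a Pearson r of 0.51, as a description across genes, which are not independent. Aurka had a log2 change of 0.76 with DHT and 0.92 without, Axin2 -1.22 and -1.08, Srd5a1 1.58 and 1.44, Sparc -2.00 and -2.07, and Eno1b 6.94 and 6.66. Of the 38 mitosis genes 33 rose without DHT, of the 36 replication genes 20 rose and 1 fell, and of the 11 strand exchange genes 7 rose. Brca1 passed the test without DHT (log2 0.53, edgeR adjusted p = 0.0147).

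The difference between the 2 genotype effects was tested as an interaction. No gene passed (0 of 15427 called, percent called 0, edgeR's quasi-likelihood test), and the lowest adjusted p was 0.517. An unadjusted p under 0.05 was held by 433 genes, fewer than the 771 that chance alone would give at that threshold. The absence of calls does not show that the genotype effects are equal in both media. DESeq2 called 6 genes. The 5 genes with the lowest p were Smoc2, Adamts9, Ncam1, Ctsf and Slc28a3. Ctsf, a lysosomal protease, had a log2 change of 1.53 with DHT and 0.23 without, and Slc28a3, a nucleoside importer, -1.15 with DHT and -0.03 without. Smoc2 changed by -1.32 with DHT and -2.65 without, Ncam1 by -1.38 and -2.53, and Adamts9 by -0.31 and -0.95. Hypoxia genes such as Pfkfb3 (0.97 with DHT and 0.04 without) and Adm (1.05 and 0.35) were called in 1 medium only, which does not show that the effects differ.

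**Figure D5:**
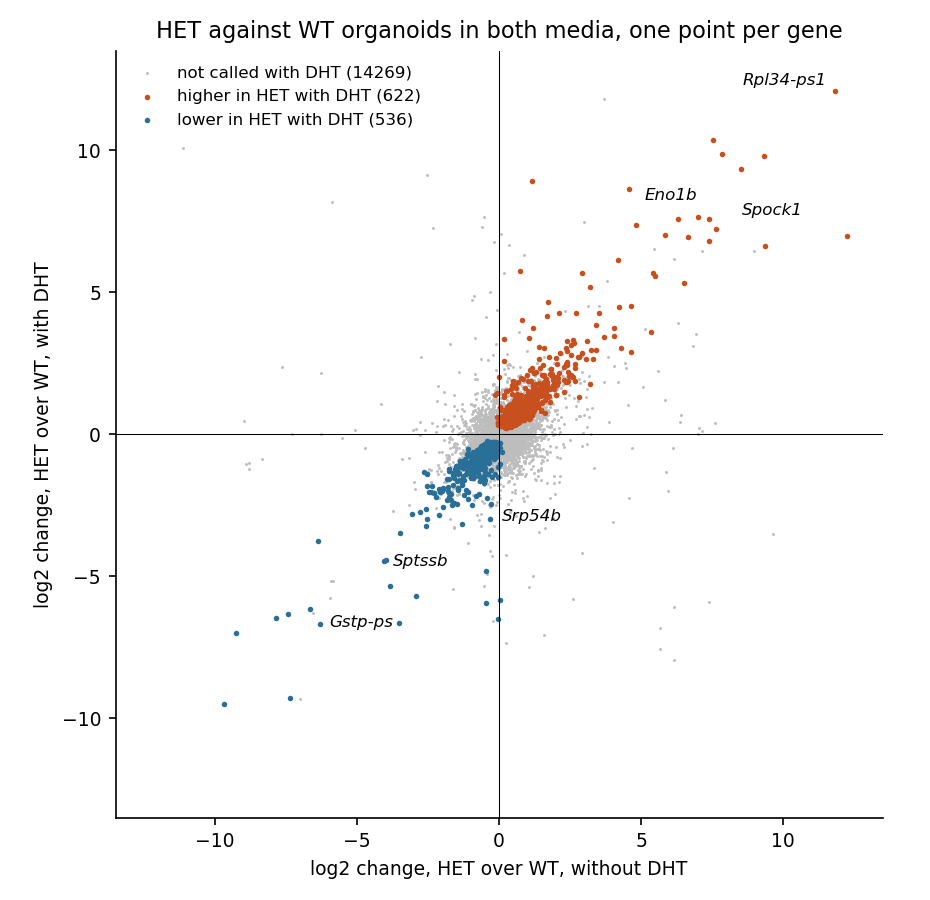
The log2 change of HET over WT without DHT (x axis) against that with DHT (y axis), 1 point per tested gene, coloured where called with DHT (622 higher, 536 lower). Most coloured points lie in the lower left and upper right quadrants, and 1145 of 1158 have the same sign in both media.

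KO organoids (genotype label Brca1-/-) with DHT were compared with the same 3 WT libraries, so the changes of both genotypes share their denominator and are only set side by side. The log2 change was 12.09 in HET and 11.81 in KO for Rpl34-ps1, 7.23 and 7.59 for Spock1, 7.65 and 7.40 for Rec8, and 1.58 and 1.65 for Srd5a1. Eno1b changed by 6.94 in HET and 0.05 in KO, Xlr3b by 5.67 and -2.30, and Trim12a by 2.88 and -0.17. Aurka changed by 0.76 in HET and 0.03 in KO, Kif2c by 0.86 and 0.21, and Mcm6 by 0.53 and -0.10. Sparc changed by -2.00 in HET and 0.26 in KO, Dsc3 by -1.45 and -0.20, and Axin2 by -1.22 and -0.73. In tissue, 1 HET and 1 WT sample held seminal vesicle RNA (Svs2 at 33858 and 146021 CPM, against 1.30 CPM in the other HET and 1.20 CPM in the other WT sample), so tissue values are given for single genes only. Eno1b had 0.504 and 4.60 CPM in HET and 3.75 and 0.933 CPM in WT tissue. Spock1 had 4.06 and 2.03 CPM in HET and 2.44 and 7.21 CPM in WT tissue, which overlap, unlike in organoids.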

How the data were processed

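RNA of 18 mouse prostate organoid libraries in 6 groups of 3 and of 6 tissue libraries in 3 groups of 2 was analysed. The deposited files list 116945 transcripts with estimated counts and TPM beside both transcript lengths, per the file headers. Salmon 0.13.1 made them, per the submitters' processing notes, which also name hg38, whereas the deposited identifiers are mouse. Salmon settings and strandedness are not given in the sources used here, so reads of overlapping antisense genes cannot be told apart. The deposited TPM values weighted the transcript lengths for the length offset alternative, and entered no other test and no printed expression value.

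Deposited estimated counts were summed per gene with GENCODE mouse release M21 (GRCm38), leaving out 922 unmatched transcripts (0.227% to 0.327% of reads), and rounded. CPM used TMM-scaled library sizes. edgeR 4.0.16 in R 4.3.3 fitted all 18 organoid libraries with 1 mean per group (filterByExpr, 15427 genes, 12 residual degrees of freedom, biological coefficient of variation 0.214), and tested by its quasi-likelihood F-test with Benjamini-Hochberg adjustment at 0.05 over all genes. Standard errors (SE) were derived from the test, as the absolute log2 change divided by the square root of its F. They were not estimated separately by the fit. Tissue values are CPM only. Results for some genes are not reported here. Exact intervals are Clopper-Pearson on reads.

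The comparison, the gene lists and the rules for naming genes were chosen with earlier results of these data known. Named genes were Brca1 and steroid receptors; the 15 largest rises and falls among called genes with at least 5 CPM and no overlap, without Gm, Rik and clone symbols; the 5 most abundant calls each way; per list role, 4 called members at most, by p, or the 2 most abundant; and the 5 lowest interaction p. Alternatives were DESeq2 1.42.0, its size factors, other filters (none, or over 1 CPM in 3 libraries), a length offset, a replicate block, only the groups compared, a mitochondrial share covariate, protein-coding genes, no Lars2 and mitochondrial genes, and leaving out each library. In simulated counts (15196 genes, 200 changed) the test recovered 26.9% of 1.5-fold, 61.2% of 2-fold and 97.0% of 4-fold changes, and 9 of 132 calls were false.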

Additional observations from a re-analysis of the deposited data

How the results depend on the processing

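With DHT, the counts of 622 higher and 536 lower genes became 1415 and 1312 when the share of mitochondrial reads entered as a covariate, and ranged from 394 to 667 and from 301 to 619 when each HET and WT organoid library was left out. Higher calls moved by more than 1.5 times without HET library 3 (403) or WT library 3 (394), and lower calls without HET library 1 (335), 2 (301), 3 (306) or WT library 3 (326). Without DHT, the counts of 698 and 507 became 1193 and 1088 with the covariate, 274 and 124 in a fit of only the groups compared, and 497 to 814 and 315 to 662 with libraries left out (315 lower without HET library 2 or WT library 2, 320 without WT library 1). The interaction count of 0 became 6 with DESeq2 and 2 with the covariate, and stayed 0 with any library left out. The causes were not tested.

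The other alternatives gave 506 to 832 higher and 362 to 794 lower genes with DHT. The 168 called named genes kept their direction under each alternative in which they were tested, which left 167 with the filter of over 1 CPM and 165 with protein-coding genes alone. The uncalled Esr2 changed sign without HET library 3 (log2 -0.20) or WT library 3 (-0.25) and ranged up to 0.63 (without WT library 2). The uncalled Pecam1 changed sign without WT library 1 (0.41) and ranged down to -0.90 (without WT library 3). Same-numbered HET and WT libraries with DHT had r of 0.0729, 0.261 and -0.109 for numbers 1, 2 and 3, so the numbers were not taken as pairs. Without DHT, HET and WT had r of -0.0619, -0.151 and -0.506 for numbers 1, 2 and 3. HET and KO had 0.613, 0.231 and 0.691 there, and HET library 3 had 0.446 with WT library 2. Between the media, HET library 3 without DHT had r of 0.360 with HET library 2 and 0.327 with WT library 2 of the cultures with DHT. It had -0.362 with HET library 3 with DHT. Some libraries thus deviated together, within and between media, while the main fit took all as independent. The cause was not tested. A replicate block gave 720 higher and 613 lower genes with DHT, 761 and 610 without, and 1 interaction call. In the simulated counts, drawn independently for each library and with fewer changed genes than were called here, 1.5-fold changes were missed most often. Whether the recovery rates hold for the real libraries was not tested.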
